A study of Mus musculus with 12 samples.

Results

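Bone matrix and mineralisation was followed here through 7 genes, Col1a2, Sparc, Omd, Ibsp, Bglap, Alpl and Pth1r, chosen by gene symbol and each measured by 1 spot of a mouse array that named 4605 distinct genes on 5030 spots. The arrays, 12 in all, carried total RNA of 2 mouse bone cell lines, with 3 arrays for each of 4 groups. The osteoblast line 2T3, from a mouse in which SV-40 T antigen ran behind a BMP-2 promoter, gave the groups C0 and low. The osteocyte line MLO-Y4, from a mouse with T antigen behind the osteocalcin promoter, gave the groups high and low. Low stands for sparse 2T3 cells, and C0 was read as the confluent state because it is the other 2T3 group. For MLO-Y4 the labels set cells with gap junctions against cells without them, and high was taken as the group with gap junctions on the same ground. All cells therefore carried a T antigen transgene, each cell type was 1 line, and cell type cannot be told apart from line or source mouse. Nothing says that the arrays of a group came from separate cultures, so the tests measure the spread between arrays, which may be technical.

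Osteoblasts lay down a scaffold of type I collagen, fill it with acidic and calcium-binding proteins, and then mineralise it. Tissue-nonspecific alkaline phosphatase removes pyrophosphate, which holds mineral back, and parathyroid hormone acts on the same cells through its receptor. An osteocyte is a former osteoblast that has become enclosed in this matrix, and alkaline phosphatase and type I collagen are known to decline along that path.

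The values are spot intensities scaled so that all 12 arrays had the same median, and a level below means this scaled intensity. A spot was called above the limit of an array when its intensity exceeded the size of that array's lowest value. By this rule 67 of 84 readings of the 7 genes were above the limit, 19 of 21 in each 2T3 group, 14 of 21 in MLO-Y4 low and 15 of 21 in MLO-Y4 high. Of all spots, those that all 3 arrays of a group read above their limits were likewise fewer in MLO-Y4, at 50.3% in 2T3 C0, 45.2% in 2T3 low, 34.6% in MLO-Y4 low and 33.4% in MLO-Y4 high. Col1a2, Sparc, Alpl and Pth1r were above it on all 12 arrays. Bglap was above it on 10, Ibsp on 5 and Omd on 4. All 6 2T3 arrays read Col1a2, Sparc, Bglap, Alpl and Pth1r above the limit, and 4 of 6 read Omd or Ibsp so.

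Arrays differed in ways that touch these genes. Before scaling, the median intensity was lowest on 2T3 low replicate 3, at 4, and highest on 2T3 C0 replicate 3, at 55. On MLO-Y4 low and high replicate 1 the medians, 10 and 9, lay under the limits of 20 and 17. In every group replicate 1 was the array least like the others over all spots. Spearman r was 0.66 to 0.73 between replicate 1 and replicates 2 or 3, and 0.83 to 0.88 between replicates 2 and 3. The cause was not tested. The 1253 spots that every array read above its limit had a median log2 difference of 0.79, MLO-Y4 minus 2T3. This became 0.04 with quantile normalization and -0.07 when arrays were scaled on those spots alone, called detected-spot scaling here. Of 11 listed osteocyte markers 6 were measured. Ackr3, Dstn, Pdpn, Cd44 and Capg were higher in MLO-Y4, and Phex was above the limit on 0 arrays. Of all spots, 8.23% were called higher and 1.87% lower. This list was chosen with earlier results of these data known, so it is not a separate check of the labels. In the other marker lists Col10a1 rose among 7 of chondrocytes, Pparg fell (-2.38, a call lost in 9 of 12 fits without 1 array) among 3 of adipocytes, Tyrobp fell (-3.03) among 8 of macrophages or osteoclasts, and 0 of 5 fibroblast, 4 muscle and 4 endothelial markers were called. Of 6 MLO-Y4 arrays, 2 read Pparg and 1 read Tyrobp above the limit. Ptprc was above the limit on 0 arrays. The summed level of the 6 osteocyte markers ran from 387 to 1262 in 2T3 and from 5779 to 17429 in MLO-Y4.

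**Figure D1:**
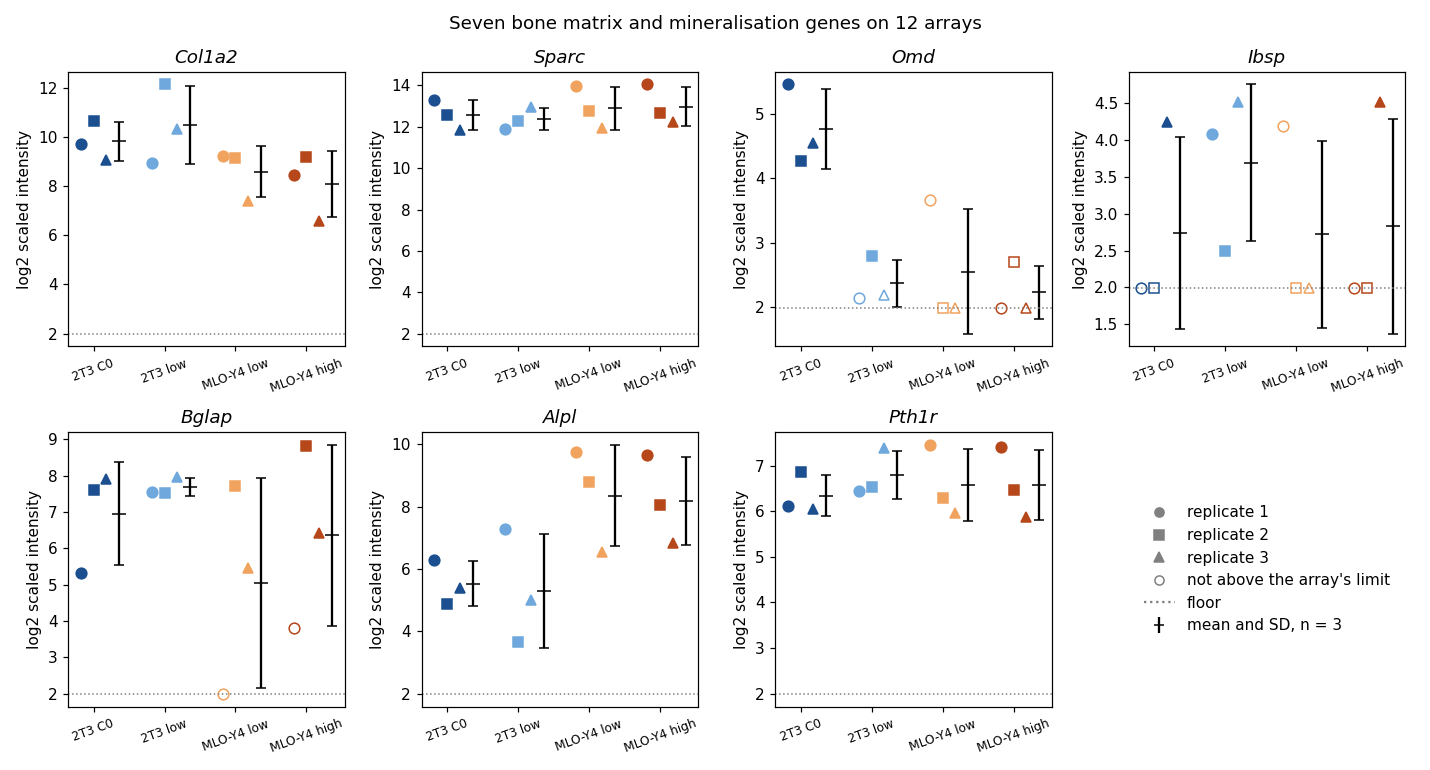
Each panel plots 1 gene on a log2 scale of scaled intensity (vertical axis) in the 4 groups (horizontal axis), with 1 point for each array, its shape giving the replicate number and an open point a reading not above the array's limit. Bars give mean and SD over 3 arrays and the dotted line the floor, 3.96 scaled units. Alpl lies higher in MLO-Y4, Omd is above the limit in 2T3 C0 and hardly elsewhere, and Bglap is scattered in MLO-Y4.

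The comparison of MLO-Y4 with 2T3 over both densities asked which genes set the osteocyte line apart from the osteoblast line. Of the 7 genes Alpl alone passed, higher in MLO-Y4, where 10.1% of all spots passed (8.23% higher and 1.87% lower; limma, Benjamini-Hochberg adjusted p under 0.05 over 5030 spots). Of the others, 4 had a mean below 2T3 and 2 a mean above it, and the median difference of the 7 was -0.44 on the log2 scale against 0.11 over all spots. The ranges of the lines overlapped for all 7, where 6.86% of spots had no overlap. With an unadjusted p under 0.05 there were 3 of 7, Alpl, Col1a2 and Omd, and 21.5% of all spots.

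Col1a2 encodes the alpha2 chain of type I collagen, the bulk protein of bone matrix. Its level was 852, 1624 and 543 in 2T3 C0 and 500, 4565 and 1308 in 2T3 low. In MLO-Y4 it was 605, 572 and 170 at low density and 353, 589 and 96.9 at high density. The 2T3 arrays lay higher, though 2T3 C0 replicate 3 and 2T3 low replicate 1 fell within the MLO-Y4 range. The geometric mean was 1144 in 2T3 and 325 in MLO-Y4, a log2 difference of -1.81 (SE 0.66, 95% confidence interval -3.26 to -0.37, adjusted p = 0.122). Adjusted p ran from 0.0138 to 0.244 over the alternatives. With quantile normalization the ranges parted and Col1a2 was 6.10-fold lower in MLO-Y4 (log2 -2.61, SE 0.57, adjusted p = 0.0166). With detected-spot scaling they parted too, and it was 6.37-fold lower (log2 -2.67, SE 0.59, adjusted p = 0.0138). It also passed with arrays weighted by their noise (adjusted p = 0.0220) and with the replicate number as a block (SE 0.47, adjusted p = 0.0366). In no fit that left out 1 array did Col1a2 pass.

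Between densities Col1a2 was at -0.66 in 2T3 (C0 minus low, interval -2.71 to 1.38) and at -0.51 in MLO-Y4 (high minus low, interval -2.56 to 1.53). Neither difference exceeded the spread between arrays, which in 2T3 low covered 500 to 4565.

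Sparc, or osteonectin, binds collagen and calcium and is among the abundant non-collagen proteins of bone. Its level was 10091, 6091 and 3650 in 2T3 C0, 3865, 5050 and 8044 in 2T3 low, 16154, 6971 and 3905 in MLO-Y4 low, and 16988, 6481 and 4794 in MLO-Y4 high. All groups overlapped, and both MLO-Y4 arrays numbered 1 gave the highest values. The line difference was 0.45 (SE 0.48, interval -0.60 to 1.51, adjusted p = 0.678). Its sign turned with the scaling, to -0.60 with quantile normalization (adjusted p = 0.287) and -0.40 with detected-spot scaling (0.450). The density differences were 0.17 in 2T3 and 0.09 in MLO-Y4, with intervals from -1.32 to 1.66 and from -1.40 to 1.58.

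A ratio of 2 spots on the same array is left as it is when the array is multiplied by 1 factor, as with equal medians and detected-spot scaling, but not by quantile normalization. The ratios below are of the deposited intensities, were chosen after the values were seen and were not tested. The log2 ratio of Col1a2 to Sparc averaged -2.32 ± 1.19 (SD, n = 6) in 2T3 and -4.59 ± 0.93 in MLO-Y4. The ratios ranged from -3.57 to -0.15 and from -5.63 to -3.46, so only 2T3 C0 replicate 1 reached into the MLO-Y4 range. The ratio of Alpl to Sparc averaged -7.07 ± 1.42 in 2T3 and -4.67 ± 0.59 in MLO-Y4. Here the ranges, -8.65 to -4.64 and -5.40 to -3.99, overlapped through 2T3 low replicate 1. For Pth1r the ratio was -5.92 ± 0.63 and -6.36 ± 0.24, with overlap. The mean ratio in MLO-Y4 was thus lower for Col1a2 and higher for Alpl, each with overlapping ranges.

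Omd, osteomodulin or osteoadherin, is a keratan sulphate proteoglycan of mineralised matrix that binds cells through integrins. Its level was 44.2, 19.4 and 23.5 in 2T3 C0, above the limit on each array. In 2T3 low it was 4.37, 6.89 and 4.54, above the limit on replicate 2 alone. None of the 6 MLO-Y4 arrays was above the limit, and 4 of their readings were 0 or below before scaling. Omd was thus above the limit on each array of 2T3 C0 and on 1 of the other 9. In the comparison of the dense groups, C0 of 2T3 and high of MLO-Y4, it was called lower in MLO-Y4 (log2 -2.54, SE 0.56, adjusted p = 0.0353), where 2.76% of spots passed and 0.457% passed as lower. The groups did not overlap, as for 4.75% of spots in that direction. Since MLO-Y4 high gave no reading above the limit, the size is a bound, at least 1.95-fold, taken from the mean in 2T3 C0 over the mean of the MLO-Y4 high limits or readings, whichever was higher. The replicate block kept the call (0.0329), and the count of all spots called rose from 139 to 236 under it.

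This call for Omd was close to the threshold. It was lost without each 2T3 C0 array in turn (adjusted p 0.0678 to 0.110), and without 2T3 low replicate 1, 2T3 low replicate 3, MLO-Y4 high replicate 1 or MLO-Y4 high replicate 3 (0.0533 to 0.107). It was also lost with a floor of 1 scaled unit (0.103) or at the 50th percentile (0.420). That second floor, 18.2, lay above every MLO-Y4 high reading of Omd and under the lowest of 2T3 C0, 19.4. The log2 difference was then -0.58. At low density, where 3.74% of spots and none of the 7 genes were called, the Omd difference was 0.18 (SE 0.56, adjusted p = 0.925). Over both densities it was -1.18 (SE 0.40, adjusted p = 0.0955), and no fold is given because the bound, set by the mean of the MLO-Y4 limits or readings, did not exceed 1. With detected-spot scaling this difference was called (log2 -1.74, SE 0.31, adjusted p = 0.00454). In all, 4 of 20 alternatives called it. The others were array weights (0.0183), the fit without the 4 arrays numbered 1 (0.0393) and that without MLO-Y4 low replicate 1 (0.0284).

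Within 2T3, Omd was the gene of the 7 with the largest density difference. Its mean was 27.2 in C0 and 5.15 in low, a log2 difference of 2.40 (SE 0.56, interval 1.17 to 3.63), with no overlap between the groups. No overlap occurred in 7.1% of all spots, with C0 higher in 3.64%, and in 1 of the 7 genes. The unadjusted p in limma was 0.00133 and the adjusted p 1, so the difference was not called. In MLO-Y4 the difference was -0.32 (interval -1.56 to 0.91), between readings of which none was above the limit. The difference between the density effects was -2.72 (SE 0.79, unadjusted p = 0.00564 in limma, adjusted p = 1).

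Ibsp, bone sialoprotein, is an acidic glycoprotein that nucleates hydroxyapatite. Its level was 1.58, 2.42 and 18.8 in 2T3 C0 and 16.8, 5.64 and 22.7 in 2T3 low. In MLO-Y4 it was 18.2, -1.82 and 3.03 at low density and -2.02, 0.65 and 22.7 at high density. Readings above the limit numbered 1 of 3 in C0, 3 of 3 in 2T3 low, 0 of 3 in MLO-Y4 low and 1 of 3 in MLO-Y4 high. Within each of these groups except 2T3 low, at least 2 arrays were not above the limit. The line difference was -0.44 (SE 0.68, interval -1.93 to 1.05, adjusted p = 0.789), and C0 minus low in 2T3 was -0.95 (interval -3.07 to 1.16). At this signal over background a change of Ibsp was not detectable, and no fold is given.

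Bglap encodes osteocalcin, a small vitamin K-dependent protein that binds hydroxyapatite and is made late in osteoblast maturation. Its promoter is of interest here because the T antigen of MLO-Y4 was placed behind an osteocalcin promoter, whose species and length the sources used here do not give. The 250 bases before the RefSeq start of mouse Bglap (GRCm38.p6, chr3:88384467-88384716, minus strand) are shown with those of Ibsp (chr5:104299037-104299286, plus strand), whose protein nucleates hydroxyapatite. Capitals mark ACCACA, the core of Runx sites, and TATAAA, the TATA box, each searched on both strands.
Bglap: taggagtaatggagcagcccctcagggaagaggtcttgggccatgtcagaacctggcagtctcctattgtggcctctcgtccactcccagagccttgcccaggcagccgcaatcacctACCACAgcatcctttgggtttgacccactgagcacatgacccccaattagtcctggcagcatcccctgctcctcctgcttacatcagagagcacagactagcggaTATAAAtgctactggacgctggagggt
Ibsp: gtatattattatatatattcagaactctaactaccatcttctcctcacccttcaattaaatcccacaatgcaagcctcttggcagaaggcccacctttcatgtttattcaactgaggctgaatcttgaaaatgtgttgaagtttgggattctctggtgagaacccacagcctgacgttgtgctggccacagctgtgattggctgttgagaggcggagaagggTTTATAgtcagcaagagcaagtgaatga
In Bglap, ACCACA begins 132 bases and TATAAA 27 bases before the start. Ibsp has the TATA box on the opposite strand, as TTTATA, 28 bases before the start, and no ACCACA in this window. Among all 32817 promoter windows of this length 14.0% hold ACCACA and 12.4% hold TATAAA. The 7 genes have 10 annotated starts, of which 1 window holds ACCACA and 3 hold TATAAA, the third at a second start of Alpl. None of the 10 holds TGANTCA, the AP-1 site (6.75% of windows), or TAATTA, a homeodomain core (4.85%). A match describes the letters and is not evidence of binding.

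The level of Bglap was 40.3, 195 and 242 in 2T3 C0 and 188, 184 and 250 in 2T3 low. In MLO-Y4 it was -16.4, 209 and 43.9 at low density and 14.1, 452 and 86.3 at high density. Replicate 1 was the lowest array in 3 of 4 groups and was below the limit in both MLO-Y4 groups, while MLO-Y4 high replicate 2 gave the highest reading of all 12. The residual SD between arrays of a group was 2.04 on the log2 scale, larger than in 99.5% of the 1253 spots above the limit on all arrays. The line difference of -1.61 (SE 1.04, interval -3.91 to 0.68, adjusted p = 0.441) did not exceed that spread. It ran from -2.29 to -0.65 over the alternatives and was called in none of 20.

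At low density the Bglap difference between lines was -2.63 (SE 1.47, adjusted p = 0.445), and without MLO-Y4 low replicate 1 it was -1.10. Between densities Bglap stood at -0.73 in 2T3 (interval -3.97 to 2.51) and at 1.31 in MLO-Y4 (interval -1.93 to 4.55). In the fit without a replicate block the MLO-Y4 value moved with single arrays. It was -0.22 without low replicate 1, 0.07 without high replicate 2, 2.64 without low replicate 2 and 2.54 without high replicate 1. Each of these fits left 1 replicate number without its partner. In MLO-Y4 the reading at high density exceeded that at low density for each of the 3 replicate numbers. With the number as a block within the line the difference was 1.31 (SE 0.56) and its adjusted p was 1. The mouse genome has close copies of this gene, Bglap2 and Bglap3, beside it, and reads of RNA from these copies by the spot cannot be told apart from Bglap here. Neither copy had a spot of its own among those named.

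**Figure D2:**
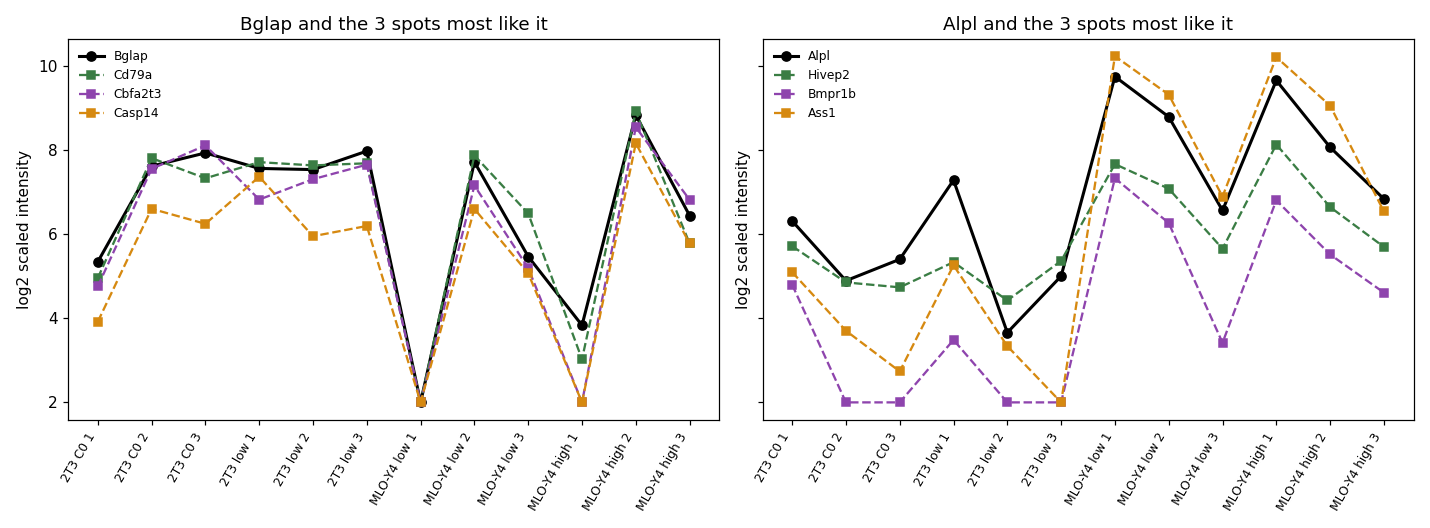
Lines join the log2 scaled intensity (vertical axis) of 4 spots across the 12 arrays (horizontal axis, group and replicate number), Bglap with the 3 spots most like it on the left and Alpl likewise on the right. Bglap, Cd79a, Cbfa2t3 and Casp14 all drop on 2T3 C0 replicate 1 and on both MLO-Y4 arrays numbered 1, and all peak on MLO-Y4 high replicate 2.

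The pattern of Bglap over the 12 arrays was most like that of Cd79a, a chain of the B cell receptor complex (Pearson r = 0.97), Cbfa2t3, a transcriptional corepressor of blood cells (0.97), and Casp14, a caspase of the epidermis (0.95). These r are descriptions over 12 arrays that share scaling and probing, among 2902 spots above the limit on at least 6 arrays. Within the 6 arrays of a line they were 0.96, 0.97 and 0.86 in 2T3 and 0.97, 0.96 and 0.97 in MLO-Y4. Cd79a read 30.8, 222 and 160 in 2T3 C0, 208, 197 and 204 in 2T3 low, -7.27, 233 and 89.3 in MLO-Y4 low, and 8.08, 480 and 54.5 in MLO-Y4 high. It was low and high on the same arrays as Bglap. In all, 13 of 2902 spots had r over 0.9 with Bglap. Named after their values were seen, the other 10 were Tpsg1, Kcnk7, Tssk2, Fgf3, Csn1s1, S100a3, Bhlha15, Rara, Ccl27a and Rgs9. As picked examples, Tpsg1 is known from mast cells, Tssk2 from testis and Csn1s1, a casein, from mammary gland. The tissues of all 13, and of the 2902 spots, were not counted, so these examples do not describe the set. Whether the Bglap spot measured osteocalcin RNA on these arrays was not tested.

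Alpl encodes tissue-nonspecific alkaline phosphatase, the enzyme of mineralising osteoblasts. Its level was 79.0, 29.5 and 42.0 in 2T3 C0 and 155, 12.5 and 31.8 in 2T3 low. In MLO-Y4 it was 854, 440 and 93.9 at low density and 801, 266 and 114 at high density. Every MLO-Y4 array lay above 5 of the 6 2T3 arrays, and 2T3 low replicate 1 lay above MLO-Y4 low replicate 3 and MLO-Y4 high replicate 3. The geometric mean rose from 42.7 in 2T3 to 308 in MLO-Y4, 7.22-fold (log2 2.85, SE 0.76, interval 1.17 to 4.54, adjusted p = 0.0389).

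The Alpl call depended on the scaling and on single arrays. Quantile normalization gave 4.22-fold (log2 2.08, SE 0.71, adjusted p = 0.111) and detected-spot scaling 3.99-fold (log2 1.99, SE 0.71, adjusted p = 0.108). The direction held in all 20 alternatives, with a difference between 1.99 and 3.34. Of the 12 fits without 1 array, 3 kept the call, those without 2T3 low replicate 1, MLO-Y4 low replicate 3 or MLO-Y4 high replicate 3. The other 9 had adjusted p from 0.0508 to 0.0995. In each of the 4 groups replicate 1, the array least like the others over all spots, gave the highest Alpl level.

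The Alpl difference was 3.05 between the low groups (SE 1.08, adjusted p = 0.174), with overlap as for all 7 genes there (18.3% of spots had none). It was 2.65 between the denser groups, MLO-Y4 high and 2T3 C0 (SE 1.08, adjusted p = 0.277). The labels do not say that the densities of the lines matched. In the denser pair the 3 MLO-Y4 arrays all lay above the 3 of 2T3 C0, as in 11.5% of all spots; with Omd lower, 2 of the 7 had no overlap, against 16.2% of spots. Between densities the difference was 0.22 in 2T3 (interval -2.16 to 2.60) and -0.18 in MLO-Y4 (interval -2.56 to 2.20).

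The spots most like Alpl over the 12 arrays were Hivep2 (r = 0.95), Bmpr1b, a type I receptor of bone morphogenetic proteins (0.94), and Ass1, which makes argininosuccinate (0.93). Within lines these r were 0.74, 0.71 and 0.68 in 2T3 and 0.98, 0.97 and 0.97 in MLO-Y4. In all 22 spots had r over 0.9. Among them was Col10a1, the collagen of hypertrophic cartilage (0.92), named after its value was seen. Col10a1 rose in MLO-Y4 from 34.8 to 359 (log2 3.37, SE 0.63, adjusted p = 0.00597). It was the 1 of 7 measured chondrocyte markers that rose, and 0 fell. The summed level of the 7 ran from 37.5 to 115 in 2T3 and from 133 to 1076 in MLO-Y4. Of the others, Acan, Hapln1 and Matn3 had no MLO-Y4 reading above the limit and Comp none on any array.

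Pth1r is the receptor through which parathyroid hormone and its related peptide raise cyclic AMP in osteoblasts and osteocytes. Its level was 69.5, 115 and 66.4 in 2T3 C0, 86.5, 92.7 and 168 in 2T3 low, 176, 78.1 and 62.1 in MLO-Y4 low, and 170, 88.2 and 59.0 in MLO-Y4 high. The ranges of the lines covered each other. The geometric mean was 94.6 in 2T3 and 95.4 in MLO-Y4, a log2 difference of 0.01 (SE 0.40, adjusted p = 0.995). The interval ran from -0.87 to 0.89. The sign was not settled by the scaling, since quantile normalization gave -0.69 (adjusted p = 0.156) and detected-spot scaling -0.85 (0.103). Density differences were -0.45 in 2T3 (interval -1.69 to 0.80) and 0.02 in MLO-Y4 (interval -1.23 to 1.26). Its residual SD, 0.65, was under the median of 0.90 for spots above the limit on all arrays.

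By the same measure of likeness, Pth1r was nearest to Ptma (r = 0.86), Lamb2 (0.84) and Cct2 (0.82), and Col1a2 to Rrm1 (0.87), Cdkn2d (0.85) and Fscn1 (0.84), with 0 spots over 0.9 for either. Sparc was nearest to Atpif1 (0.96), Cops7a (0.96) and Fdft1 (0.95), with 25 spots over 0.9. Omd and Ibsp were above the limit on too few arrays for this measure.

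**Figure D3:**
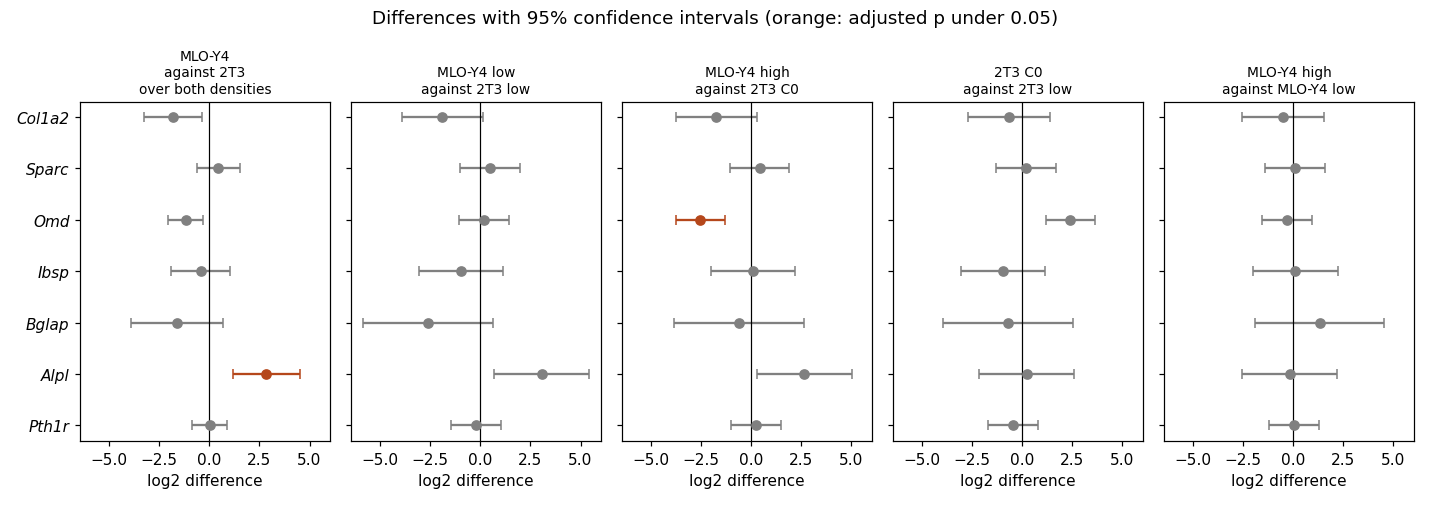
Points give the log2 difference of each gene (rows) in 5 comparisons (panels, first group minus second) and bars the 95% confidence interval of the fit. Only Alpl over both densities and Omd at the denser state passed the adjusted threshold, and the intervals of Bglap are the widest.

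**Figure D4:**
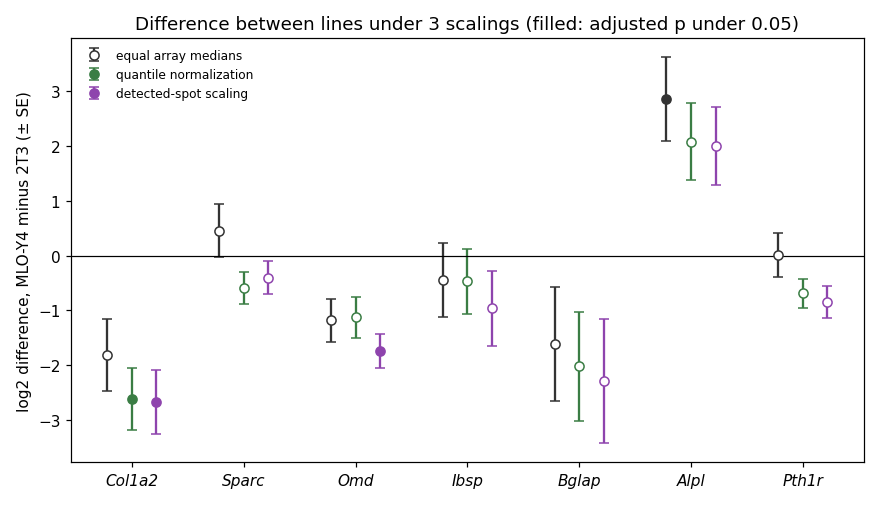
The log2 difference between lines (vertical axis, MLO-Y4 minus 2T3, bars SE) is drawn for each gene under 3 scalings of the same 12 arrays. Alpl stays above 0 and Col1a2, Omd, Ibsp and Bglap below it, while Sparc and Pth1r change sign.

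Between densities no gene of the 7 was called in either line. Nor was any spot of the array, with 0 of 5030 in limma for C0 against low in 2T3 (2.8% at an unadjusted p under 0.05) and 0 for high against low in MLO-Y4 (2.31%), where all 7 genes overlapped between densities and 3.86% of spots did not. The difference between the density effects gave 0 calls as well (2.07%). Comparisons within and between lines share arrays and are not separate evidence.

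Other genes of matrix and mineral were read from lists, each without the 7 genes. Of 22 collagen and bone matrix genes 5 rose and 1 fell in MLO-Y4, beside 8.23% and 1.87% of all spots, with a median of 0.17. Under both other scalings 4 rose and 2 fell, and the median turned to -0.29 (quantile normalization) and -0.38 (detected spots). Rises were led by the thrombospondin genes Thbs1 (log2 4.13, SE 0.53) and Thbs2 (4.07, SE 0.64) and by Fbln1, a fibulin of elastic matrix (4.48, SE 0.62). Of 6 2T3 arrays, 1 read Fbln1 and 3 read Thbs2 above the limit, so the sizes for these genes are uncertain. The genes of 2 chains of type V collagen, which sets the width of type I fibrils, followed, Col5a3 (2.77, SE 0.52) and Col5a2 (2.58, SE 0.61). Clec3b, tetranectin, fell (-1.85, SE 0.41). Adjusted p ran from 0.000667 to 0.0216. The call of Col5a2 was lost under both other scalings, at 0.121 for quantile normalization and 0.0810 for detected spots, and in 3 of 12 fits without 1 array. Col5a3 and Col5a2 thus had a mean above that of 2T3, and Col1a2, which was not called, a mean below it. Col5a1 was at 0.49 (adjusted p = 0.694), under the median of 0.79 for spots above the limit on all arrays. The leucine-rich proteoglycan genes Bgn (0.70), Dcn (0.19), Lum (-0.29) and Ogn (0.14), of the family of Omd, were not called.

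Among 15 genes of collagen processing 2 rose and 0 fell, beside 8.23% and 1.87% of all spots. Their median was 0.90, or 0.04 with detected-spot scaling. Spots above the limit on all arrays had medians of 0.79 and -0.07 under these scalings. Tgm2, a transglutaminase that crosslinks matrix proteins, rose from 58.1 to 673 (log2 3.54, SE 0.42, adjusted p = 0.000430). The lysyl hydroxylase gene Plod2 rose too (2.71, SE 0.72, adjusted p = 0.0373), a call lost in 8 of 12 fits without 1 array and under both other scalings. Serpinh1, the collagen chaperone, was at -0.11 and Lox, which crosslinks collagen, at 1.35, neither called.

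Of 16 mineral and phosphate genes 2 rose and 0 fell, beside 8.23% and 1.87% of all spots, with a median of 0.21. Under both other scalings 2 rose and 2 fell, with medians of 0.0052 for quantile normalization and -0.41 for detected spots. Slc20a1, a phosphate transporter, rose from 55.3 to 619 (log2 3.48, SE 0.54, adjusted p = 0.00222). Nt5e, the ecto-enzyme that releases adenosine and phosphate, was at least 5.86-fold higher (adjusted p = 0.000344) with no 2T3 reading above the limit. Both calls held in all 12 fits without 1 array and under the other scalings. Ank, which exports pyrophosphate, was at -1.12 (SE 0.43, adjusted p = 0.142), and Mgp, an inhibitor of calcification, at -0.31. Phex was above the limit on no array.

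In the parathyroid hormone list 5 of 28 genes rose and 1 fell, beside 8.23% and 1.87% of all spots. Their median was 0.34, or -0.20 with detected-spot scaling. The phosphodiesterase gene Pde4b, which breaks down cyclic AMP, rose from 5.85 to 127 (log2 4.44, SE 0.39), Ptgs2, a prostaglandin synthase, by 7.49 (SE 0.66) and Il6 by 3.72 (SE 0.60). Of 6 2T3 arrays, 1 read Pde4b and 2 read Il6 above the limit, so the sizes for these genes are uncertain. The calls of Pde4b, Ptgs2 and Il6 held in all 12 fits without 1 array. Nr4a1 (2.07, SE 0.54) and Ramp3 (2.61, SE 0.70) rose and Adcy7, an adenylyl cyclase, fell (-1.82, SE 0.52), with adjusted p from 0.0344 to 0.0494. Those 3 calls were lost in 7, 9 and 10 of 12 such fits. Nr4a1 (0.177 and 0.113) and Ramp3 (0.0531 and 0.145) were also not called with quantile normalization and detected-spot scaling. Over the list, 3 rose and 2 fell under either of these. The G protein gene Gnas (1.13, the brighter of 2 spots), the kinase subunit gene Prkaca (-0.23) and the resorption factors Tnfsf11 (-0.42) and Tnfrsf11b (0.42) were not called. Tnfsf11 was above the limit on 2 arrays of 2T3 and 0 of MLO-Y4, and Tnfrsf11b on 2 of each line.

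Of 22 osteoblast transcription factors 4 were higher and 2 lower, beside 8.23% and 1.87% of all spots, with a median of 0.05. Under both other scalings 3 were higher and 4 lower, with medians of -0.11 for quantile normalization and -0.59 for detected spots. Fosl1 (log2 2.84, SE 0.42), the vitamin D receptor gene Vdr (2.31, SE 0.49), Cebpb (3.02, SE 0.65) and Dlx3 (3.38, SE 0.73) rose, and Six2 (-4.62, SE 0.39) and Msx2 (-3.03, SE 0.76) fell. The call of Dlx3 was lost under both other scalings (0.0926 and 0.0713) and that of Msx2 in 8 of 12 fits without 1 array.

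**Figure D5:**
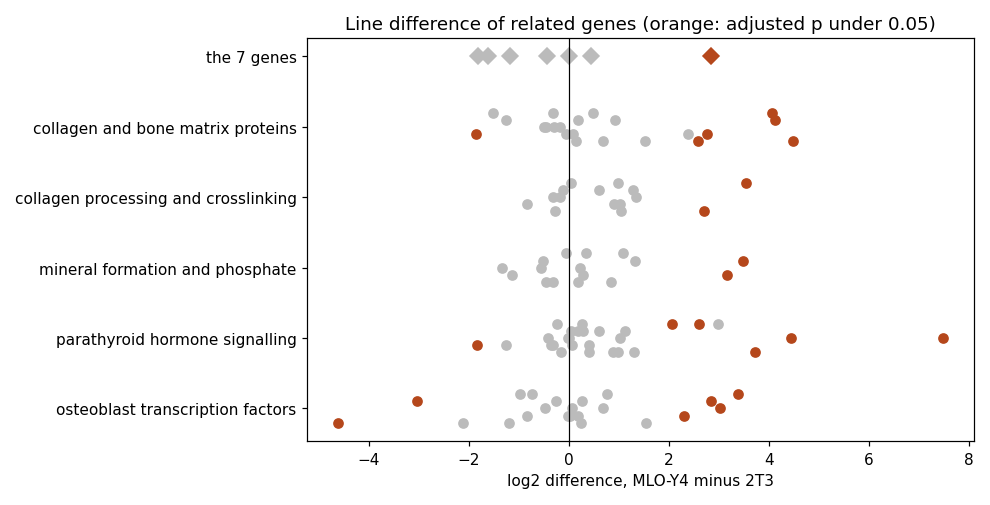
Each point is 1 gene at its log2 difference between lines (horizontal axis, MLO-Y4 minus 2T3), in 5 lists of related genes and for the 7 genes (top row, diamonds), with orange for adjusted p under 0.05. Calls stand mostly to the right, and the 7 genes hold 1. Of all spots called between lines, 81.5% were higher with equal medians, as drawn here, and 43.8% with detected-spot scaling.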

How the data were processed

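The authors deposited a single table of spot intensity for the 12 arrays, on a linear scale and in integers between -23 and 53055; scale and unit were inferred from these numbers. The image software, background method and normalization used by the authors were not given in the sources used here. A platform annotation listed 4638 of 5030 spots, 4633 with 1 gene symbol and 5 with several, and symbols were updated through Entrez identifiers for 4624. Each of the 7 genes had 1 spot. Arrays were scaled to equal medians, raised to a floor of 3.96, the 25th percentile after scaling, and log2 was taken. Readings at the floor cannot be ranked. An array's limit was its lowest reading with the sign dropped, chosen with these data known. Where a group had no reading above the limit, a fold is given only as a bound.

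Group means over all 12 arrays were fitted with limma 3.58.1 (lmFit, eBayes) in R 4.3.3, two-sided, with 8 residual degrees of freedom, and p was adjusted by Benjamini-Hochberg over 5030 spots in each of 6 comparisons, with a threshold of 0.05. The script was tested on simulated data, with noise drawn independently for each array and differences between lines set in brighter spots. It called 16% of set log2 differences of 2 and 79% of those of 4. A gene that was not called may therefore still differ. Replicate numbers were checked for pairing by the correlation over spots of same-numbered deviations from group means. It was 0.627, 0.480 and 0.514 between MLO-Y4 densities and 0.504, 0.293 and 0.375 between MLO-Y4 high and 2T3 C0, which was taken as pairing (all over 0.1). It was 0.0673, 0.0991 and 0.113 between 2T3 densities and -0.0265, -0.118 and 0.0889 between the low groups, which was not. Differently numbered arrays gave -0.490 to 0.166 between MLO-Y4 densities and -0.472 to 0.283 between MLO-Y4 high and 2T3 C0. They gave -0.130 to 0.0633 between 2T3 densities and -0.133 to 0.178 between the low groups. Between 2T3 densities the same-numbered values, though small, all exceeded the others, so the rule does not settle pairing there. The main fit held no replicate block, so its intervals between MLO-Y4 densities leave the pairing unused. Alternatives were other scalings, floors, a filter, blocks, array weights and arrays left out.

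The genes and lists were chosen with earlier results of these data known. Named were all 7 genes with every array, up to 6 called members of each list, further list members after their values were seen, and, for genes above the limit on at least 6 arrays, the 3 spots with the highest Pearson r. No arrays were left out of the groups. The number of arrays limits the precision.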

Additional observations from a re-analysis of the deposited data

Results flagged for a closer look

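Bglap in 2T3 stood out for a single array. Over the 6 2T3 arrays, 2T3 C0 replicate 1 lay at 5.33 on the log2 scale and the other 5 between 7.53 and 7.96, a gap of 0.83 of the whole range. The same test was applied to the 6 arrays of each line for all 7 genes, and about 1 in 20 such groups stand out by chance.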

How the results depend on the processing

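Of 889 refits of single genes of the 7 under the alternatives, 854 kept their side of the threshold, 25 lost a call and 10 gained one, and no called difference changed sign. Most refits were of differences not called in the main fit, so the 854 do not measure how firm the calls were. The Alpl call over both densities was kept in 7 of 20 alternatives. The Omd call at the denser state was kept in 9 of 21. Between the lines over both densities, 1 of the 7 genes was called, Alpl. Detected-spot scaling gave 2, Col1a2 and Omd, and quantile normalization 1, Col1a2, each without Alpl. The replicate block gave 2, Alpl and Col1a2, and array weights 3, these and Omd. With the floor at the 50th percentile there were 0, and without a single array 0 to 1. The 1 gene called was Omd, not Alpl, without MLO-Y4 low replicate 1 and without the 4 arrays numbered 1. All spots called there numbered 788 with array weights against 508, and 356 to 514 without a single array. At low density 0 of the 7 were called, against 1 with the replicate block and 1 with array weights, Alpl in both, and the spots called, 188, became 308 with the replicate block, 433 with array weights, 103 with only the groups compared and 106 to 249 without a single array. At the denser state the 1 gene called, Omd, was lost (0 called) with a floor of 1 scaled unit, the floor at the 50th percentile, spots above the limit on at least 3 arrays, only the groups compared and without the 4 arrays numbered 1, and 0 to 1 were called without a single array. Spots called there, 139, became 236 with the replicate block, 361 with array weights, 53 with only the groups compared and 79 to 168 without a single array. For density in 2T3, 2 spots were called with the floor at the 50th percentile and 2 with array weights, against 0. Under the replicate block Col1a2 between lines (adjusted p = 0.0366, limma) and Alpl at low density (0.0338) were gained and no other call of the 7 genes changed. By the rule used, the numbers were not taken as paired between 2T3 densities or the low groups. Higher calls made up 81.5% of all calls between lines with equal medians, 43.8% with detected-spot scaling and 62.6% with quantile normalization. The cause of these changes was not tested. Omd and Ibsp lay near the limit on most arrays, where signal over background limits any comparison.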
